A study of Rattus norvegicus with 16 samples.

Results

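The immediate early transcription factors described here are the genes Fos, Jun, Junb, Jund, Egr1, Nr4a1, Atf3, Btg2, Cebpb and Cebpd in rat skeletal muscle. Their members were found as all probe sets that the platform's probe table pairs with a single symbol from these 10 genes. The rule gave 22 probe sets of 9 genes, out of 7018 probe sets of 4737 genes with a single symbol on the array: 4 each for Jun and Egr1, 3 each for Fos and Cebpd, a pair each for Junb, Nr4a1 and Cebpb, and 1 each for Jund and Atf3. No probe set carried Btg2 as its single symbol, so that gene is not analysed here. The groups were EOM (extraocular muscle, which turns the eyeball, 4 arrays of 4 numbered samples), TA_6h (skeletal muscle labelled TA and collected at 6 hours, 8 arrays of 4 numbered samples) and TA_1h (the TA muscle collected at 1 hour, 4 arrays of 2 numbered samples). The labels name no strain, age, sex or treatment, no event from which the hours count and no collection time for EOM. They do not say whether a number marks an animal, so the p-values speak of the spread among numbered samples, and that spread may be technical.

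Immediate early genes are transcribed within minutes of a stimulus from factors that the cell already holds, mainly serum response factor with its ETS partners and the cyclic AMP response element binding protein, which kinase cascades switch on. Their transcripts are short-lived, so their levels follow recent stimulation, and in muscle contraction, injury and stress are known inducers. Fos and Jun family proteins pair into the AP-1 dimer, Egr1 is a zinc finger factor, Nr4a1 is an orphan nuclear receptor, Atf3 is a stress-induced relative of the cyclic AMP response element binding proteins, and Cebpb and Cebpd are leucine zipper factors of the C/EBP family that act in inflammation and adipocyte differentiation.

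The promoters are shown for 5 of the members whose values are given below. Sites of serum response factor and of the cyclic AMP response element binding protein are marked where present. No site of the ETS partners was searched. They are the 250 bases before the annotated start in RefSeq's promoter table for the rat build GRCr8, which held 6 of the 10 genes, Btg2 among them; Fos, Jun, Atf3 and Cebpd had no entry there. Capitals mark the CArG box, the site of serum response factor, and the cyclic AMP response element TGACGTCA or its core TGACG on either strand, so that a core on the other strand reads CGTCA. The windows, on the strand of the gene, were chr18:26736828-26737077 (plus) for Egr1, chr7:134259888-134260137 (plus) for Nr4a1, chr19:40080876-40081125 (plus) for Junb, chr16:18769772-18770021 (minus) for Jund and chr3:176816755-176817004 (plus) for Cebpb.
Egr1: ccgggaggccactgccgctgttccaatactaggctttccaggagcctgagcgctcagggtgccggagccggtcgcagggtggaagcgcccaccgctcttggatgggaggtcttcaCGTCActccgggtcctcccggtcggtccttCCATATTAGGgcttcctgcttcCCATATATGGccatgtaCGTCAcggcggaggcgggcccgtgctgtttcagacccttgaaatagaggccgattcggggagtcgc
Nr4a1: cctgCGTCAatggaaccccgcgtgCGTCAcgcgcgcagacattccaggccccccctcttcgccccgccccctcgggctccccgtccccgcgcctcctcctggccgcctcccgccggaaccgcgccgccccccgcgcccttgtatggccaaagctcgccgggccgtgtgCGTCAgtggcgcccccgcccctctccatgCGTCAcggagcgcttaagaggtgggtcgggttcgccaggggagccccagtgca
Junb: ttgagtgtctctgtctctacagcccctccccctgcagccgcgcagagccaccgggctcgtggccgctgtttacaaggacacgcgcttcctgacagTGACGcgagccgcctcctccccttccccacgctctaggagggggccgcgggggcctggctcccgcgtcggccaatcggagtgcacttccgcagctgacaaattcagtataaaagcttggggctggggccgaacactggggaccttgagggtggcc
Jund: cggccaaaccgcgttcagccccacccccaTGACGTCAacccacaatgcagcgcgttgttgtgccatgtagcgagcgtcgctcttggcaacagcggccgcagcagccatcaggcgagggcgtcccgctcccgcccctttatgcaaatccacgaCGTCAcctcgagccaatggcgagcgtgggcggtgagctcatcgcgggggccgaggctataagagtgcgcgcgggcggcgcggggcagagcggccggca
Cebpb: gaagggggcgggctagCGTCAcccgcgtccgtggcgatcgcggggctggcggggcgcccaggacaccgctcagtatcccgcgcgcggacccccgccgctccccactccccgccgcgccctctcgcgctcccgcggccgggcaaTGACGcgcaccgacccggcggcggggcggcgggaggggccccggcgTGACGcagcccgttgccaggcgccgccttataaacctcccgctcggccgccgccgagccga

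Egr1 was the only one of the 6 promoters with a CArG box. It held 2, at 105 to 96 and 83 to 74 bases before the start, and 1.5% of the 33469 promoters searched over the same window, 501 of them, held at least 1. The cyclic AMP element core TGACG stood in 6 of 6 member promoters and in 18.2% of all promoters, with 4 sites in Nr4a1, 3 each in Jund and Cebpb, 2 each in Egr1 and Btg2 and 1 in Junb. The full element TGACGTCA stood in Jund and Btg2 and in 1.59% of all promoters, and each full element overlaps 2 cores. The AP-1 site TGANTCA stood in none of the 6 and in 6.34% of all. The EGR site GCGGGGGCG was found in Nr4a1 alone of the 6 (2.45% of all promoters), the TATA box TATAAA in Junb and Cebpb (12.9%) and the CCAAT box CCAAT in Junb, Jund, Egr1 and Btg2 (34.0%). All motifs were searched on both strands, and a match is a description of letters in this window, not of a factor bound there.

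The deposited values are linear intensities. Values under 56.5, the 25th percentile of all intensities, were raised to this floor before log2 was taken, and differences below are between mean log2 values of numbered samples. A probe set was tested when it was not 1 of the 59 controls and lay above the floor on at least 4 arrays. Of the 8799 probe sets 7640 were tested, among them all 22 of the member probe sets. A tested probe set was called when its limma p was under 0.05 after Benjamini-Hochberg adjustment over all 7640. EOM columns held values below 0 (24.3% of them), whereas TA columns held none, so that the muscle and the step that summarised the probes cannot be told apart in EOM against TA. On 5 TA arrays (TA_6h 3a, 3b, 4a and 4b, and TA_1h 2b) the middle probe set of the beta-actin control read 0.146 to 0.390 times its 3′ probe set, a ratio that was 0.891 to 0.978 in EOM and 0.815 to 1.28 on the remaining 7 arrays of TA. These 5, named from beta-actin alone, are called the low-ratio arrays below. The GAPDH control set apart other TA arrays, where its middle probe set lay far under its 3′ probe set. In TA_1h these read 1299 and 7008 for array 1a and 1433 and 6793 for array 2a. In TA_6h they read 2184 and 5472 for array 1b and 856 and 5328 for array 2b. On the low-ratio arrays the middle one was the higher, except on TA_6h 4b (22046 and 22980). A split of the TA arrays by GAPDH was not tested. Of the 9 skeletal muscle markers found on the array none lay at the floor on all arrays of a group, and 1 was called higher and 4 lower in EOM than in TA_6h (1 higher and 3 lower than in TA_1h), with summed intensities of 96107 to 120081 in EOM, 100175 to 246943 in TA_6h and 111200 to 246770 in TA_1h. Markers of several other cell types also differed between EOM and TA_6h, where 47.2% of all tested probe sets were called. Of 12 immune cell markers 8 were called higher and 1 lower in EOM than in TA_6h (summed intensity 14197 to 20761 in EOM, against 5715 to 9557 in TA_6h and 5059 to 6319 in TA_1h), and Mcpt1 lay at the floor on every EOM array. Of 12 fibroblast markers 7 were called higher and none lower (90089.7 to 107278 in EOM, 64593 to 97503 in TA_6h and 46436 to 62647 in TA_1h), and of 6 Schwann cell and nerve markers 5 were called higher and none lower (10033 to 14060 in EOM, 2147 to 2909.6 in TA_6h and 2296 to 3103 in TA_1h). The endothelial list had 1 of 6 called higher and 2 lower, the smooth muscle list 3 of 7 and 3, the adipocyte list 3 of 6 and 2, and the red blood cell list 0 of 4 and 1. Of these lists Icam2 (endothelium), Cnn1 (smooth muscle) and Plin1 and Lipe (adipocyte) also lay at the floor on every EOM array. The part of these cells in the results below was not tested, and in bulk samples fewer cells of a type and less RNA per cell cannot be told apart.

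The labels give no collection time for EOM, so muscle and collection time cannot be told apart in EOM against TA. EOM was compared with TA_6h to see how the immediate early factors differ between these groups. Most of them were lower in EOM: 18 of the 22 probe sets were called, 15 lower and 3 higher. X17163cds_s_at of Jun, among the 15, passed the filter through TA arrays alone. Over all tested probe sets 47.2% were called, 25.3% lower and 21.9% higher. The median member difference was -1.46 on the log2 scale, against -0.11 for all tested probe sets. Through the brightest probe set of each gene, Fos, Jun, Junb, Egr1, Nr4a1, Atf3 and Cebpb were called lower and Jund and Cebpd higher. For 15 of the 22 probe sets no EOM array overlapped a TA_6h array, 13 of them lower in EOM, where 40.8% of all tested probe sets did not overlap, 24.3% lower and 16.6% higher. Calls for 11 of the 18 were kept in every alternative run for them, and those lost are named with their genes below.

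**Figure D1:**
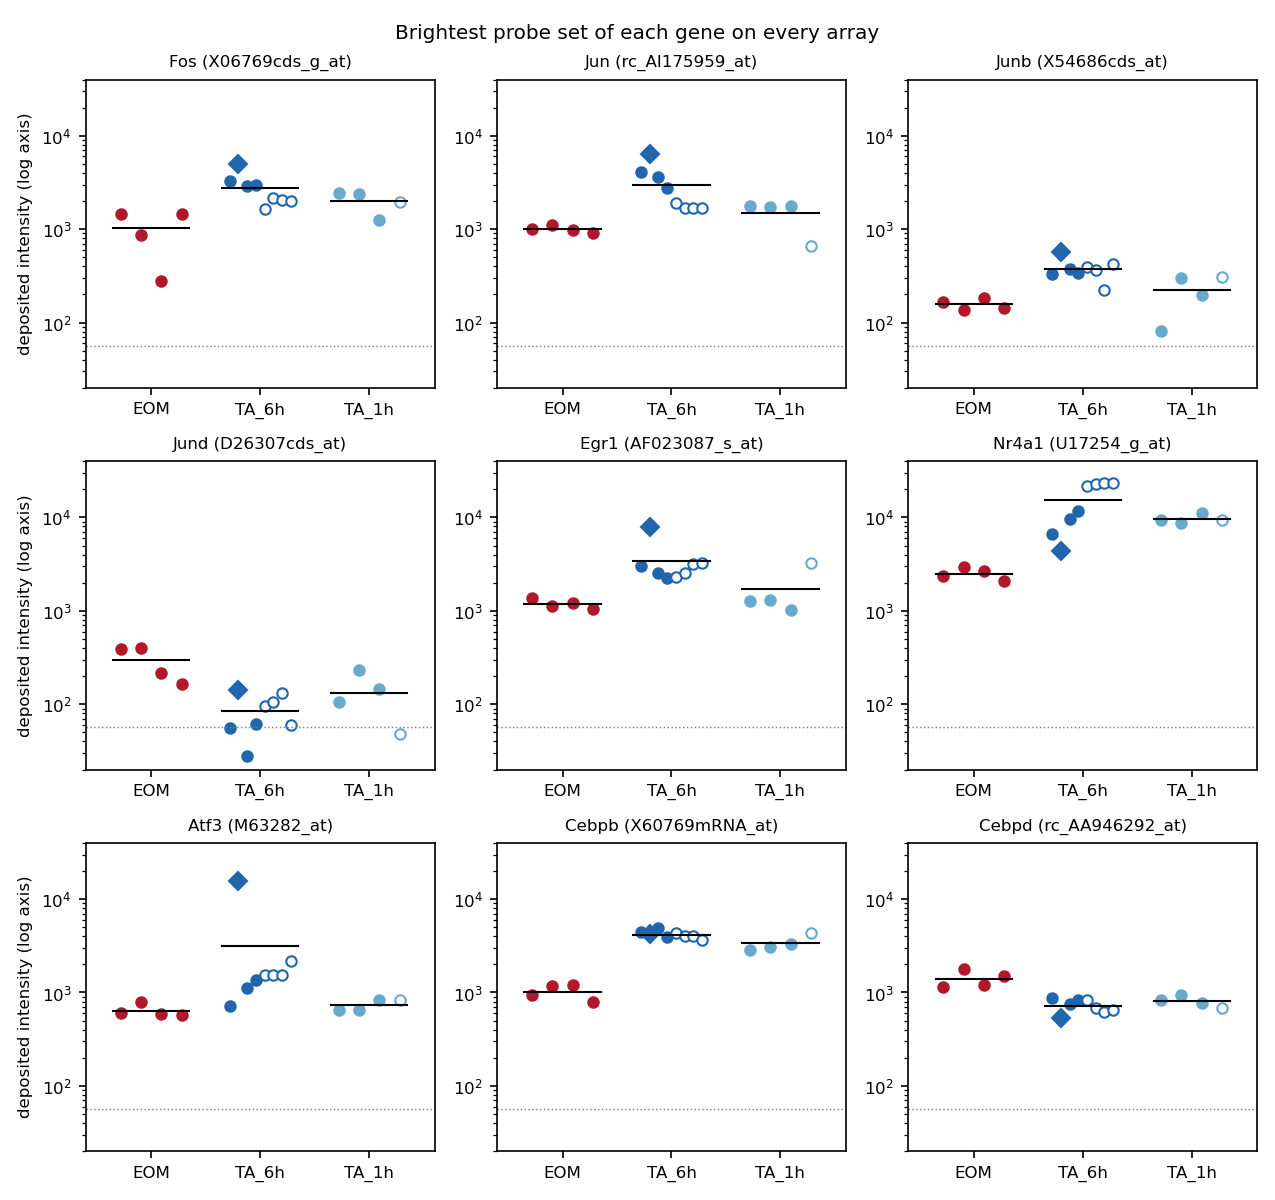
Deposited intensity of the brightest probe set of each member gene on every array (log axis, arbitrary intensity units), with EOM, TA_6h and TA_1h in this order from left to right; open circles are the low-ratio TA arrays, the diamond is TA_6h array 1b, black lines are means over numbered samples and the dotted line is the floor of 56.5. EOM points lie under the TA_6h points for Fos, Jun, Junb, Egr1, Nr4a1 and Cebpb and above them for Jund and Cebpd, and for Atf3 the array 1b stands at 15432.

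Fos, the AP-1 partner that cannot pair with itself, was lower in EOM in all 3 of its probe sets. The brightest, X06769cds_g_at, had intensities of 1452, 874, 279.9 and 1461 on the 4 EOM arrays, 1628 to 5032 with a median of 2540.1 on the TA_6h arrays, and 2422, 2379.5, 1241 and 1955 on the TA_1h arrays. EOM replicate 3 was the lowest array of all 16, and no EOM array reached the lowest TA_6h array. The difference from TA_6h was -1.61 ± 0.51 on the log2 scale (SE, limma adjusted p = 0.0253), which is 3.05-fold lower. The second probe set, X03347cds_g_at, ran from 184 to 314 in EOM and from 331 to 3614 in TA_6h, again without overlap (-2.00 ± 0.56, limma adjusted p = 0.0155). X06769cds_at was above the floor on 2 of 4 EOM arrays and gave -2.23 ± 0.73 (limma adjusted p = 0.0300), which understates the fold. The TA_6h values of Fos fell into separate ranges: X03347cds_g_at lay at 331 to 496 on the 4 low-ratio TA_6h arrays and at 1416 to 3614 on the other 4. Without the low-ratio arrays this probe set differed by -3.08, and with only those arrays as TA by -0.92, called in both. The brightest probe set was not called with only the low-ratio arrays (-1.20, limma adjusted p = 0.233), without TA_6h replicate 1 or 2, or with no filter on low values. X06769cds_at lost its call in 8 of the 26 alternatives in which it was tested, among them the fits without EOM replicate 1, 3 or 4 and without TA_6h replicate 1 or 2.

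Jun, the AP-1 subunit that pairs with Fos or with itself, was also lower in all of its probe sets. Its brightest, rc_AI175959_at, had 1007, 1112, 987 and 909 in EOM, 1698 to 6451 with a median of 2316 in TA_6h, and 1789, 1726, 1786 and 662 in TA_1h. All 4 EOM arrays lay under every TA_6h array, and the TA_1h array of low ratio lay under all of EOM. The difference was -1.41 ± 0.34 (SE, limma adjusted p = 0.00751). Probe sets rc_AA945867_at and rc_AA944014_at differed by -1.67 ± 0.22 (limma adjusted p = 0.000179) and -1.08 ± 0.24 (limma adjusted p = 0.00498), both without overlap. The call for rc_AA944014_at was lost without the low-ratio arrays (-0.90, limma adjusted p = 0.058). For X17163cds_s_at every EOM array lay at the floor and the TA_6h arrays ran from 68.3 to 1992. In deposited intensity EOM was at least 6.52-fold lower (limma adjusted p = 0.0155). The call rests on a probe set that passed the filter through TA arrays alone, with 3 of 4 EOM values below 0. That call was lost with the floor at the 40th percentile (limma adjusted p = 0.0604), and the difference was -4.22 without the low-ratio arrays and -1.19 with only these.

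Junb and Jund, the other Jun family subunits, went opposite ways. Junb, which is induced like Jun but is a weaker activator, had 165, 137, 183 and 142 in EOM, 224 to 565 with a median of 369 in TA_6h, and 81.9, 299.8, 199.7 and 309 in TA_1h in its brightest probe set X54686cds_at. EOM lay under all TA_6h arrays and within the range of TA_1h. The difference from TA_6h was -1.23 ± 0.20 (SE, limma adjusted p = 0.000683). In the other probe set, rc_AA891041_at, only EOM replicate 3 was above the floor, the TA_6h arrays ran from 140 to 852, and the difference was -2.78 ± 0.42 (limma adjusted p = 0.000465). Jund, the family member known for steady rather than induced expression, had 394, 403, 214 and 165 in EOM, 27.7 to 143 with a median of 78.1 in TA_6h, and 105, 230.2, 145 and 47.7 in TA_1h. Every EOM array lay above every TA_6h array, and 2 of 8 TA_6h arrays were at the floor. The difference was 1.72 ± 0.33 (SE, limma adjusted p = 0.00216), or 3.30-fold higher. These calls of Junb and Jund were kept in every alternative in which the probe sets were tested, with Jund ranging from 1.01 to 1.97.

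For Egr1, whose protein binds the EGR site and which carries the CArG boxes shown above, the 4 probe sets disagreed. The brightest, AF023087_s_at, had 1359.9, 1131, 1215 and 1045 in EOM, 2274 to 7868 with a median of 2788 in TA_6h, and 1278, 1313, 1021 and 3261 in TA_1h. EOM lay under all TA_6h arrays but among the TA_1h arrays, of which only 2b reached the TA_6h range. The difference from TA_6h was -1.39 ± 0.25 (SE, limma adjusted p = 0.00123) and ranged from -1.60 to -1.17 over the alternatives, all called. M18416_at pointed the same way without a call (-0.87 ± 0.37, limma adjusted p = 0.0803), and it was called without the low-ratio arrays (-1.50, limma adjusted p = 0.0132), without TA_6h replicate 3, and without TA_6h array 1b (-0.60, limma adjusted p = 0.0494). rc_AI176662_s_at differed by 0.25 ± 0.32 (limma adjusted p = 0.548). U75398_s_at was called the other way: its EOM arrays lay at 833 to 938 and its TA_6h arrays at 358 to 870.5, a difference of 0.64 ± 0.16 (limma adjusted p = 0.00765), which was not called after quantile normalization (0.44, limma adjusted p = 0.0584). No single direction can be given for the gene from all its probe sets.

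Nr4a1, the orphan nuclear receptor whose window above held 4 cyclic AMP element cores, was lower in EOM in both probe sets. U17254_g_at had 2342, 2969, 2639 and 2073 in EOM, 4316 to 23376 with a median of 16679.8 in TA_6h, and 9497, 8684, 11098 and 9336 in TA_1h. All EOM arrays lay under the lowest TA array, which was TA_6h array 1b. The difference from TA_6h was -2.40 ± 0.42 (SE, limma adjusted p = 0.00119), or 5.27-fold lower. U17254_at gave -1.52 ± 0.27 (limma adjusted p = 0.00126), with EOM at 1181 to 1634 and TA_6h at 2362 to 7272. In U17254_g_at the low-ratio TA_6h arrays were the higher ones, opposite to Fos, whereas the low-ratio TA_1h array 2b (9336) lay among the other TA arrays. In U17254_at the low-ratio TA_6h arrays (3149 to 7272) overlapped the other TA_6h arrays (2362 to 5077). Array 2b was the lowest TA array there (1603). U17254_g_at read 21713 to 23376 on the 4 low-ratio TA_6h arrays, above all other TA arrays, and its difference was -3.20 with only the low-ratio arrays as TA and -1.60 without them, called in both.

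Atf3, the stress-induced factor, had 608, 790, 589 and 575 in EOM, 715 to 15432 with a median of 1527 in TA_6h, and 649, 643, 839 and 826 in TA_1h. Its highest value, on TA_6h array 1b, was far from the second highest of the group, 2171 on array 4b. TA_6h array 1 lay within the EOM range, and the other 7 TA_6h arrays lay above it. The difference was -1.53 ± 0.29 (SE, limma adjusted p = 0.00178). Without array 1b it was -0.98 and still called (limma adjusted p = 0.0175), and with the unlettered TA_6h arrays 1 and 2 taken as samples of their own it was not called (limma adjusted p = 0.0673).

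The 2 C/EBP factors differed in direction in their brightest probe sets, but not in all probe sets of Cebpd. Cebpb had 946, 1173, 1196 and 784 in EOM, 3620.2 to 4862 with a median of 4101 in TA_6h, and 2854, 3083, 3294 and 4306 in TA_1h in its brightest probe set X60769mRNA_at. All TA arrays, low-ratio or not, stood above all EOM arrays. The difference from TA_6h was -2.04 ± 0.18 (SE, limma adjusted p = 1.58e-05), or 4.10-fold lower, the smallest adjusted p among the 22 member probe sets, and it stayed within -2.23 to -1.91 over the alternatives. S77528cds_s_at, with 3 of 4 EOM arrays above the floor, gave -2.84 ± 0.57 (limma adjusted p = 0.00251), which became -2.05 and was not called with only the low-ratio arrays as TA (limma adjusted p = 0.0543). Cebpd was higher in EOM in its brightest probe set rc_AA946292_at, with 1147, 1789.7, 1217 and 1486 in EOM, 534 to 877 with a median of 722 in TA_6h, and 826, 932, 764 and 684 in TA_1h. Again no EOM array overlapped a TA array. The difference from TA_6h was 0.96 ± 0.18 (SE, limma adjusted p = 0.00193), called in all alternatives. The remaining Cebpd probe sets were not called: M65149_at gave -0.30 ± 0.31 (limma adjusted p = 0.452), and rc_AI045030_s_at, above the floor on 1 EOM array, gave -0.22 ± 0.54 (limma adjusted p = 0.757).

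**Figure D2:**
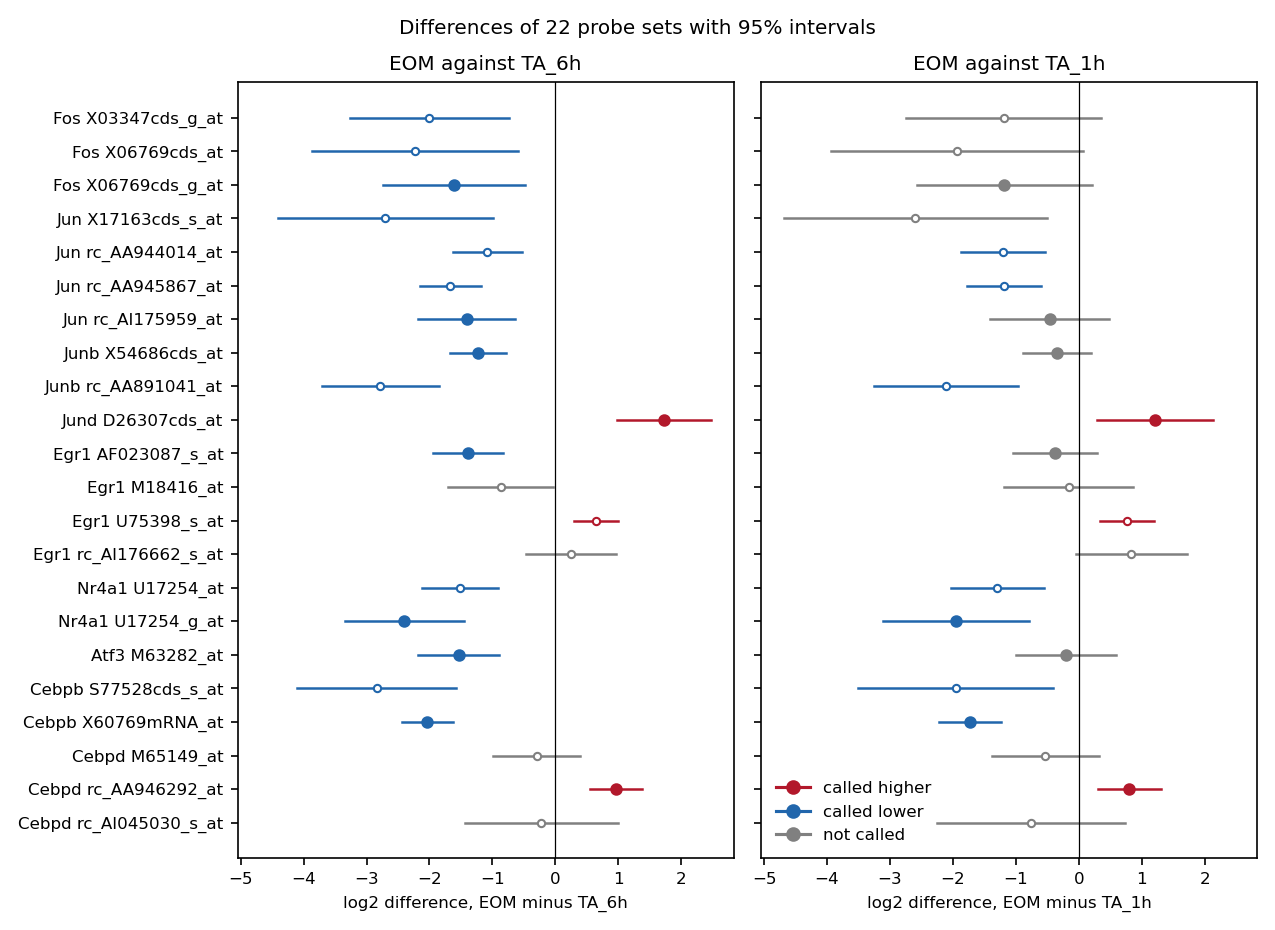
Log2 difference of EOM from TA_6h and of EOM from TA_1h for each of the 22 member probe sets, with bars for the 95% interval; filled points are the brightest probe set of a gene, blue is called lower, red called higher and grey not called. Against TA_6h the points run from -2.84 to 1.72, and against TA_1h the intervals are wider and 12 of 22 points are grey.

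Against TA_1h, which shares the EOM samples with the comparison above, 10 of the 22 probe sets were called, 7 lower and 3 higher in EOM, where 37.2% of all tested probe sets were called, 19.5% lower and 17.7% higher. Arrays did not overlap for 10 of the 22, 7 of them lower, where 49.3% of all tested probe sets did not overlap, 28.1% lower and 21.2% higher. The median member difference was -0.97, against -0.09 for all tested probe sets. Both Nr4a1 probe sets (-1.95 ± 0.52, limma adjusted p = 0.0143, and -1.30 ± 0.33, limma adjusted p = 0.012) and both Cebpb probe sets (-1.73 ± 0.22, limma adjusted p = 0.00024, and -1.96 ± 0.69, limma adjusted p = 0.0493) were lower. So were rc_AA945867_at (-1.19 ± 0.26, limma adjusted p = 0.0059) and rc_AA944014_at (-1.21 ± 0.30, limma adjusted p = 0.0104) of Jun, and rc_AA891041_at of Junb (-2.10 ± 0.51, limma adjusted p = 0.00963). Jund (1.21 ± 0.41, limma adjusted p = 0.0422), U75398_s_at of Egr1 (0.76 ± 0.19, limma adjusted p = 0.0113) and rc_AA946292_at of Cebpd (0.80 ± 0.23, limma adjusted p = 0.019) were higher. Fos was not called in any probe set, with -1.19 ± 0.62 in the brightest (limma adjusted p = 0.163) and a 95% interval of -2.58 to 0.20. All 3 Fos probe sets were called lower in some alternatives, X06769cds_at in 5 (-2.10 without the low-ratio arrays, limma adjusted p = 0.00138), X03347cds_g_at in 3 and X06769cds_g_at in 2. X17163cds_s_at of Jun, at the floor on every EOM array, gave -2.60 ± 0.94 (limma adjusted p = 0.0528) and was called lower in 12 of the 26 alternatives in which it was tested. Atf3 gave -0.21 ± 0.35 (limma adjusted p = 0.683), with a 95% interval of -0.997 to 0.583, and the brightest probe sets of Jun (-0.47), Junb (-0.34) and Egr1 (-0.38) were not called either. The group held 2 samples, and of the 10 calls only those of rc_AA945867_at of Jun and X60769mRNA_at of Cebpb were kept in all 27 alternatives. Without TA_1h replicate 1 or without replicate 2 there were 4 calls each. Jund lost its call in 15 alternatives and S77528cds_s_at of Cebpb in 12.

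TA_6h was compared with TA_1h to see whether the factors differ between the collection times. None of the 22 probe sets was called by limma, and neither was any of the 7640 tested (0%). At an unadjusted limma p under 0.05 there were 4 of 22, where 424 of all tested probe sets, or 5.55%, passed. The differences ran from -0.54 to 1.33 on the log2 scale, 17 above 0 and 5 below, with a median of 0.43 against 0.01 for all tested probe sets, and their standard errors from 0.19 to 0.94. The 4 were the brightest probe sets of Atf3, Egr1, Jun and Junb, all higher in TA_6h. Atf3 differed by 1.33 ± 0.35 with a 95% interval of 0.54 to 2.12 (limma adjusted p = 0.596), and by 0.77 without TA_6h array 1b (limma adjusted p = 0.863). Egr1 differed by 1.01 ± 0.30 (limma adjusted p = 0.673), Jun by 0.94 ± 0.42 (limma adjusted p = 0.885) and Junb by 0.89 ± 0.24 (limma adjusted p = 0.602). For each of the 22 probe sets some TA_6h array lay within the TA_1h range or the reverse, where 1.26% of all tested probe sets did not overlap. Fos gave 0.42 ± 0.62 with a 95% interval of -0.97 to 1.81, and Cebpb 0.31 ± 0.22 with a 95% interval of -0.18 to 0.80, so that the data leave room for differences in either direction.

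The low-ratio arrays held all arrays of TA_6h replicates 3 and 4 and 1 of the arrays of TA_1h replicate 2. Over the TA arrays, 3 of the 22 probe sets, 13.6%, did not overlap between low-ratio and other arrays, all lower on the low-ratio arrays. The share was 13.4% over all tested probe sets, 8.91% lower and 4.52% higher, so the members' share is near that of the whole array. X06769cds_at of Fos read 62.2 to 206 on the low-ratio arrays and 246 to 1538 on the others. X17163cds_s_at of Jun read 68.3 to 307 on the low-ratio arrays and 453 to 1992 on the others. For rc_AI045030_s_at of Cebpd the low-ratio arrays gave 29.9 to 65.5, in part under the floor, and the others 113 to 256. Without the low-ratio arrays the TA_6h minus TA_1h differences were larger for Fos (1.88 in X03347cds_g_at, limma adjusted p = 0.156, and 1.65 in X06769cds_at, limma adjusted p = 0.126) and for Egr1 (1.58 in the brightest probe set, limma adjusted p = 0.124), and none was called. With only those arrays as TA, where TA_1h is the single array 2b, Nr4a1 (1.29 in U17254_g_at, limma adjusted p = 0.0361) and Jun (1.40 in rc_AI175959_at, limma adjusted p = 0.0166) were called higher in TA_6h. That lone array is assumed to vary like the samples of the other groups, so these p-values rest on their spread. In that setting the brightest Egr1 probe set gave -0.22 (limma adjusted p = 0.666), below 0, while 16 of the 22 differences were above 0. The part of the control ratio in these differences was not tested.

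**Figure D3:**
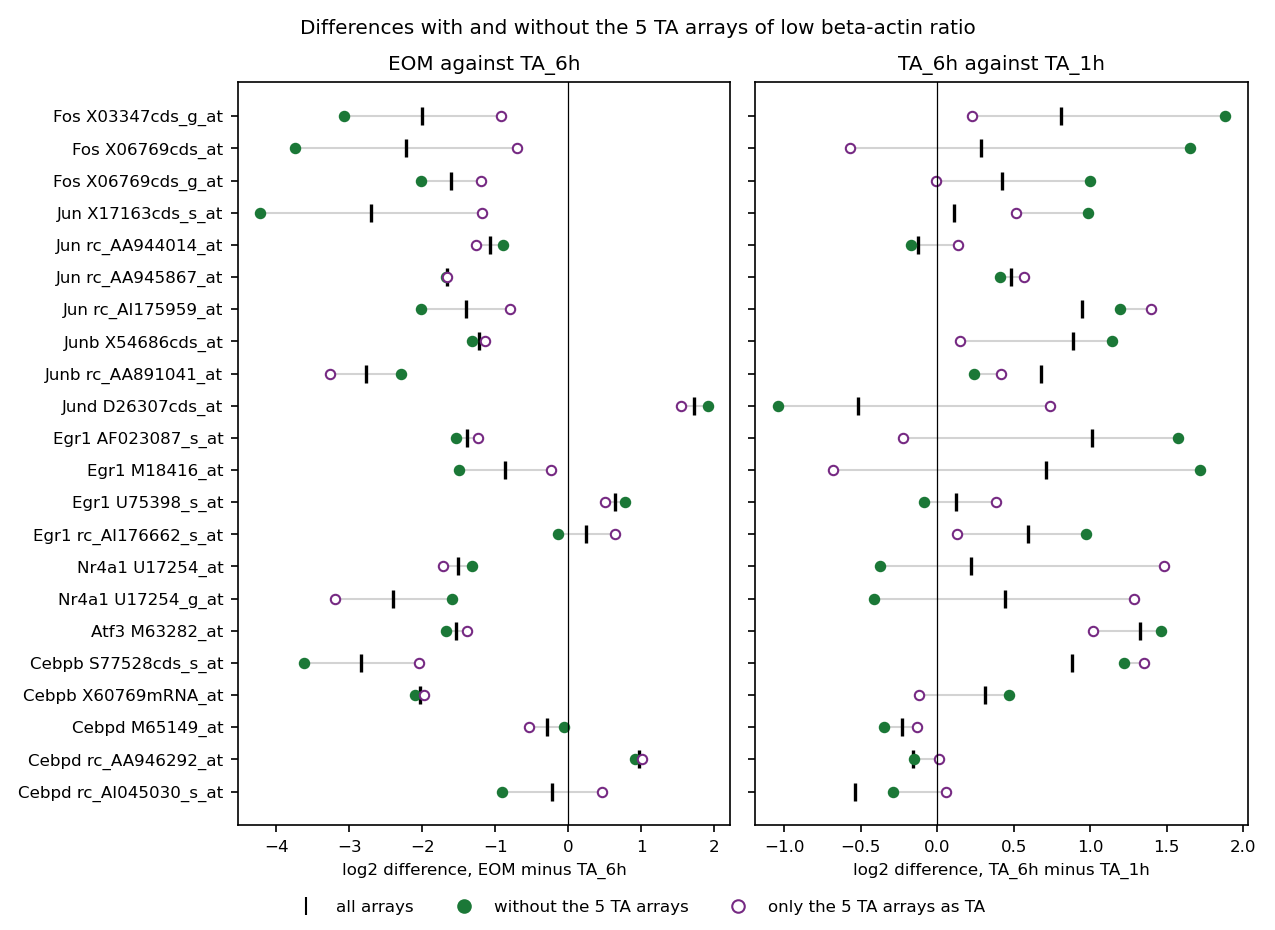
Log2 differences of the member probe sets in EOM against TA_6h and in TA_6h against TA_1h, with black ticks for all arrays, green points for the fit without the 5 low-ratio TA arrays and open purple points for the fit with only those as TA. The probe sets named here are examples from EOM against TA_6h. All 3 Fos probe sets, rc_AI175959_at and X17163cds_s_at of Jun, M18416_at of Egr1 and S77528cds_s_at of Cebpb lie further below 0 without the low-ratio arrays. With only these arrays, rc_AA944014_at of Jun, rc_AA891041_at of Junb and both Nr4a1 probe sets lie further below 0.

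Arrays of one number and group were averaged above, and the members show how far such arrays agree. Between the arrays of a number the median absolute log2 difference of the 22 member probe sets was 0.13 to 0.30 for TA_6h 2, 3 and 4, 0.15 for TA_1h 1, 0.58 for TA_1h 2 (2b, of low ratio, against 2a) and 0.68 for TA_6h 1 (1b against 1). Over all tested probe sets it was 0.52 for TA_1h 2 and 0.33 for TA_6h 1. On TA_6h array 1b, whose join with array 1 is an inference, 7 of the 22 probe sets were over 2-fold higher than on array 1 and none was over 2-fold lower, where 401 of the 7640 tested probe sets, or 5.25%, were over 2-fold higher and 557 over 2-fold lower. Atf3 read 15432 on array 1b and 715 on array 1, 21.6-fold higher and the fourth largest change of either direction among the 7640 probe sets, with 643 to 2171 on the other 10 TA arrays. The 3 Egr1 probe sets among the 7 read 7868, 2850 and 1180 on array 1b, against 3016, 636 and 321 on array 1, and the others were rc_AA945867_at and X17163cds_s_at of Jun and the probe set of Jund. Of the 78 tested genes of the pathway lists below, 16 were over 2-fold higher on array 1b and 2 lower. Hbegf, a growth factor of the EGF family, read 1772 on array 1b and 145 on array 1. Nr4a3, the sister receptor of Nr4a1, read 1059.8 on array 1b and 109 on array 1, and Hspa1a, the inducible heat shock protein, 14005 on array 1b and 1501 on array 1. These 3 genes were chosen after their values were seen. Klf6, Ccn1, Plaur, Tgfb1, Cd44 and Socs3, named with the lists below, were also over 2-fold higher on array 1b. The GAPDH control was lower on array 1b. Its middle probe set read 2184 there and 19527 on array 1, and its 3′ probe set 5472 and 17582. On TA_6h array 2b the middle probe set read 856, against 9700 on array 2. The part of this difference in the member values was not tested.

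**Figure D4:**
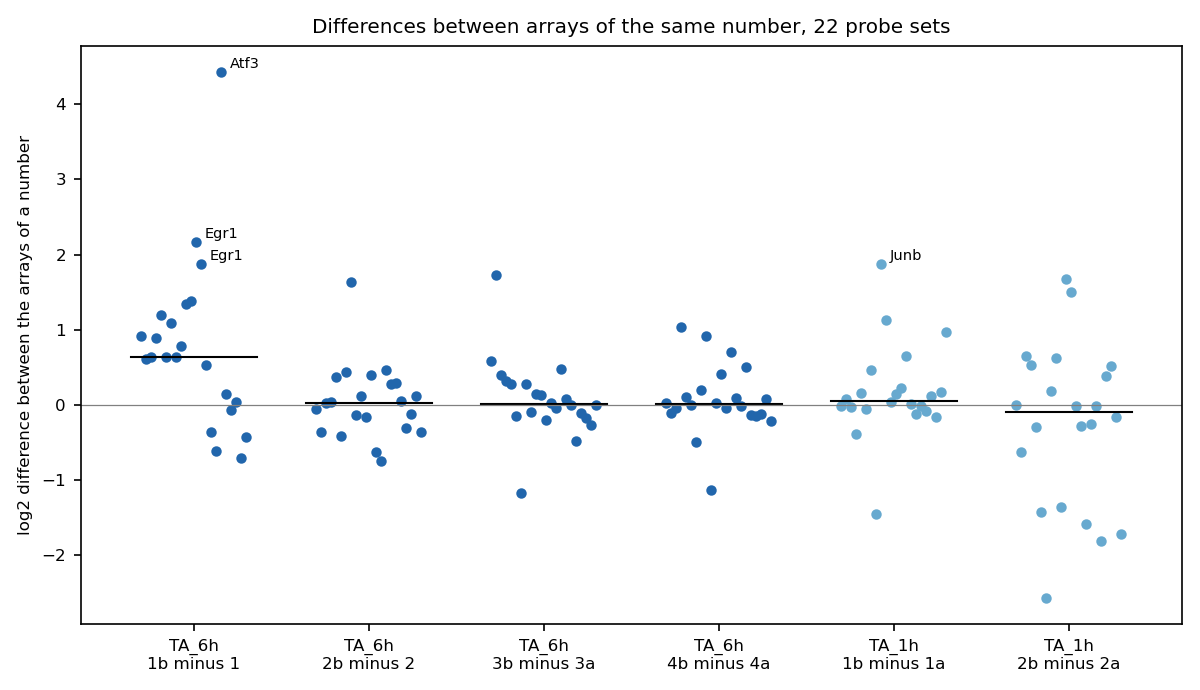
Log2 difference between the second and the first array of each number for the 22 member probe sets, in the order TA_6h 1 to 4 and TA_1h 1 and 2, with black lines at the median. TA_6h 1 (array 1b minus array 1) lies mostly above 0 with Atf3 at 4.43, and TA_1h 2 spreads widely to both sides.

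The members were set beside 3 lists of genes of the same pathway. Each list gene was read through its brightest tested probe set alone, and its other probe sets are not described. Over all tested probe sets 47.2% were called in EOM against TA_6h, 25.3% lower and 21.9% higher. Against TA_1h 37.2% were called, 19.5% lower and 17.7% higher. Of 53 other immediate early and stress-induced genes 36 were tested, and in EOM against TA_6h 11 were called higher and 9 lower, with a median of -0.02 against -0.08 for all genes. The lower ones were led by Klf10, an early response zinc finger factor (98.7 ± 69.9 in EOM and 1361 ± 315 in TA_6h, SD, n = 4 each, log2 -3.70 ± 0.33, limma adjusted p = 1.62e-05), and Dusp5, a nuclear ERK phosphatase (-2.54 ± 0.36, limma adjusted p = 0.000315). Klf6, a further zinc finger factor, was at the floor on all EOM arrays and passed the filter through TA alone. In deposited intensity it was at least 3.78-fold lower. The zinc finger factor Egr4 (-1.71) and the matricellular protein Ccn1 (-1.37, with 1 EOM array above the floor) followed. Cebpa and Cebpe, named here for their floor values and not by size, were also among the 9 called lower. Both were at the floor on all EOM arrays and passed the filter through TA alone, like Klf6. Higher were Atf2, a partner of Jun (1.57 ± 0.24, limma adjusted p = 0.000513, with 4 of 8 TA_6h arrays above the floor), the early response gene Ier3 (1.49 ± 0.23, limma adjusted p = 0.000553), the kinase Sgk1 (1.40), the zinc finger factor Klf4 (1.40) and Dusp1, the phosphatase that switches off p38 and JNK (2107 ± 323 in EOM and 871 ± 429 in TA_6h, SD, n = 4 each, 1.39 ± 0.31, limma adjusted p = 0.00466). Against TA_1h 8 of the 36 were called higher and 7 lower, with Cebpa among the lower ones.

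Of 41 upstream kinases and factors 21 were tested, and 3 were called higher and 8 lower in EOM than in TA_6h, with a median of -0.31. The p38 kinases Mapk12 (396 ± 34.8 in EOM and 2274 ± 404 in TA_6h, SD, n = 4 each, -2.50 ± 0.19, limma adjusted p = 6.09e-06) and Mapk14 (-2.09 ± 0.19, limma adjusted p = 1.65e-05) and their activator Map2k6 (-1.03 ± 0.20, limma adjusted p = 0.00189) were all lower, with Nfkbia (-1.31), the inhibitor of NF-kappa-B, and Mef2d (-1.01), a muscle transcription factor. Higher were Prkar1a, a regulatory subunit of the cyclic AMP dependent kinase (1.27 ± 0.17, limma adjusted p = 0.000262), Mapk7, or ERK5 (0.94), and Creb1, the factor of the cyclic AMP response element (0.85 ± 0.29, limma adjusted p = 0.0337). Against TA_1h 2 of the 21 were called higher and 7 lower. Of 30 genes known as targets of AP-1, C/EBP or EGR factors 21 were tested, and 5 were called higher and 8 lower in EOM than in TA_6h, with a median of -0.13. Spp1, the matrix phosphoprotein osteopontin, was higher (682 ± 113 in EOM and 91.3 ± 7.73 in TA_6h, SD, n = 4 each, 2.93 ± 0.19, limma adjusted p = 1.93e-06), as were the protease Mmp3 (1.30), the chemokine Ccl2 (1.23), the cytokine Lif (1.07) and the protease inhibitor Timp1 (0.55). Lower in deposited intensity were the urokinase receptor Plaur (at least 4.35-fold) and the growth factor Tgfb1 (at least 3.86-fold). Both were at the floor on all EOM arrays and passed the filter through TA alone. Hspa1a (-1.82), the hyaluronan receptor Cd44 (-1.59) and the cytokine signal inhibitor Socs3 (-1.32) were lower too. Against TA_1h 6 of the 21 were called higher and 4 lower. Between TA_6h and TA_1h limma called none of the 78 genes.

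Within the groups the correlation of the other members with Fos ran from -0.60 to 0.42. Over the 10 numbered samples, with each log2 value taken relative to its group mean, the Pearson correlation of the brightest Fos probe set with the brightest probe set of the other members was 0.42 for Jun, 0.22 for Cebpd, 0.19 for Atf3, 0.16 for Jund, 0.14 for Egr1, -0.29 for Junb, -0.51 for Nr4a1 and -0.60 for Cebpb. The genes of the most similar pattern among 3832 were Grm8 (0.96), Kcne1 (0.95), Ralgapa1 (0.94), Slc8a3 (0.93) and Rabep2 (0.92). The samples share the EOM replicate whose Fos value of 280 stands apart and the low-ratio arrays, and these correlations describe the samples only.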

How the data were processed

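RNA of rat muscle was measured on single-colour oligonucleotide arrays of 8799 probe sets, 59 of them controls. The authors deposited 1 linear intensity per probe set and array; its making from the scans is not described in the sources used here. The intensities had a common trimmed mean on all arrays and were used as deposited. Values under the 25th percentile of all intensities were raised to it, log2 was taken, and arrays of one number and group were averaged. TA_6h arrays 1 and 2 carry no letter, and their join with 1b and 2b is an inference. One limma 3.58.1 fit in R 4.3.3 covered all 3 groups (7 residual and 2.83 prior degrees of freedom), tested first on simulated data, with Benjamini-Hochberg adjustment. The number of arrays limits the precision. Replicate numbers were not taken to pair samples, and a fit with the number as a block was run as an alternative. Deviations from group means correlated by 0.105, 0.0206, 0.0324 and 0.0713 between EOM and TA_6h samples of one number. Between TA_6h and TA_1h samples of one number they correlated by 0.389 and -0.418. Yet 4 of 4 EOM samples correlated best with their own number in TA_6h, and 2 of 4 TA_6h samples with their own number in EOM. A pairing by number is therefore not excluded.

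Gene symbols come from the platform's probe table, in which 7018 probe sets have 1 symbol, 308 several and 1473 are not listed. Promoters come from RefSeq (GRCr8), and their motifs were searched in Python 3.11.15. Figures were drawn with matplotlib 3.10.9. Members and lists were chosen with earlier results of these data known. All member probe sets are described, with the brightest (highest mean log2 value over the numbered samples) of a gene first. Genes of the pathway and marker lists were counted as called through their brightest tested probe set alone. Per pathway list up to 5 genes called higher and 5 called lower in EOM against TA_6h are named by size, with the 5 genes most correlated with Fos. Genes named outside this rule are said to be so. The alternatives changed the scaling, floor, filter, pseudocount, samples, blocks and groups in the fit. Those without TA_6h array 1b and with the unlettered arrays as samples of their own were chosen after seeing the data.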

Additional observations from a re-analysis of the deposited data

Results flagged for a closer look

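Of the 43 groups of 4 samples examined, 2 held a single sample apart from the other 3, both in EOM. Chance alone flags about 1 in 20, but that rate does not cover groups whose other samples are tied at the floor, as in both. The Junb probe set rc_AA891041_at read 116 in EOM replicate 3, against -63.6 to 39.2 in the other EOM replicates, which were all at the floor. The Cebpd probe set rc_AI045030_s_at read 235 in EOM replicate 1, against -171 to 46.7 in the others, again all at the floor. In both the gap to the nearest sample was the whole range of the group on the floored scale, which the tie of the others at the floor fixes in advance.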

How the results depend on the processing

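The number of arrays limits all comparisons, and TA_1h holds 2 numbered samples; values at the floor give bounds only. Over 27 alternatives, 2 of them chosen after seeing the data, the number of member probe sets called in EOM against TA_6h was 13 to 19, against 18 as reported, and 16 to 19 when 1 numbered sample was left out; the 13 were of 16 member probe sets that passed the strictest filter, above the floor on each of the 16 arrays. In EOM against TA_1h the 10 calls became 16 with a batch term for the low-ratio TA arrays, and ranged from 4 to 11 without single samples, with 4 each without TA_1h replicate 1 and without replicate 2. In TA_6h against TA_1h the count of 0 became 1 with the batch term and 2 with only the low-ratio arrays as TA. In at least 1 alternative 7 of the 18 called probe sets lost their call and 2 others gained one in EOM against TA_6h, 8 of the 10 lost and 10 others gained one in EOM against TA_1h, and 2 gained one in TA_6h against TA_1h. The difference of rc_AI175959_at of Jun in EOM against TA_1h, -0.47 and not called, became 0.60 and called (limma adjusted p = 0.0248) with only the low-ratio arrays as TA. TA_1h is then the single array 2b, assumed to vary like the samples of the other groups. The cause was not tested.

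Over all probe sets the 3606 calls in EOM against TA_6h became 1927 among the 4041 above the floor on all 16 arrays, and the 2843 in EOM against TA_1h became 1512 there and 1861 without TA_1h replicate 1. In TA_6h against TA_1h the 0 calls became 8 with no filter, 45 without the low-ratio arrays, 57 with the batch term and 681 with only the low-ratio arrays. There was 1 call each on the filter of all 16 arrays, with each array as its own sample, without TA_6h replicate 3, without TA_6h replicate 4 and with the unlettered arrays as samples of their own. With the number as a replicate block 18 member probe sets were called in EOM against TA_6h, 7 in EOM against TA_1h and 0 in TA_6h against TA_1h; 4 of 4 EOM samples and 2 of 4 TA_6h samples correlated best with their own number. Quantile normalization and scaling to the same median moved the median of all tested probe sets by less than 0.1 in each comparison.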
